A study of Mus musculus with 48 samples.

Results

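The genes described here are 41 genes of the G2 and M phases of the cell cycle: cyclins and their kinase, mitotic kinases, spindle checkpoint, kinetochore, spindle and cytokinesis genes. They were chosen by name for their known functions, with earlier results of these data known. Where a gene had several probe sets the brightest, averaged over the 48 arrays, stood for it. Of the 41, 40 could be followed and all 40 passed the filter on low signals, among 12800 genes tested. Ccnb1 was not analysed here.

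The cells were 32D, an interleukin-3-dependent mouse myeloid progenitor line, and every culture also expressed the BCR/ABL oncoprotein of chronic myeloid leukaemia. They carried the retroviral vector MigRI, which was either empty or expressed the transcription factor C/EBPα fused to the estrogen receptor (C/EBPα-ER), so that 4-hydroxytamoxifen (4-HT) activates the fusion. The fusion came in 3 forms: wild type (WT), K298E, described in the labels as deficient in DNA binding, and Δ(177-191), described there as deficient in the interaction with CDK2 and CDK4. RNA was taken at 0, 6, 9 and 12 h after 4-HT and each of the 16 groups has 3 arrays. All groups share the 32D line, BCR/ABL, the MigRI backbone and, from 6 h on, 4-HT, and each construct is 1 transduced line. No culture without 4-HT was sampled after 0 h, so the empty vector line is the control for time and for 4-HT.

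Entry into mitosis is driven by CDK1 bound to cyclins A and B, and Polo-like and Aurora kinases, the spindle checkpoint and the anaphase-promoting complex then carry the cell through chromosome segregation and cytokinesis. The transcripts of these genes are low in G1, rise in G2 and fall after division, so that in a culture of mixed phases their level follows the share of cells in G2 and M as well as the level per cell. On bulk RNA, fewer cells in G2 and M and less RNA per such cell cannot be told apart. C/EBPα is known as an inducer of granulocyte differentiation that also slows proliferation.

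Many of these genes share 2 promoter elements, the cell cycle genes homology region (CHR, letters TTTGAA) and the CCAAT box. Promoter windows of 300 bases, from 250 before to 50 after the annotated start, came from RefSeq on GRCm38.p6 and existed for 33 of the 40 genes. The CHR letters, read on both strands as TTTGAA or TTCAAA, stood in 24 of the 33 windows (72.7%) against 18.1% of 27025 gene windows. The CCAAT letters (CCAAT or ATTGG) occurred at least 1 time in 26 windows (78.8%, all genes 37.9%) and at least 2 times in 17 (51.5%, all genes 12.2%). Overlapping matches on opposite strands were counted separately. The letters TTGCNNAA or TTNNGCAA, a core of C/EBP sites, were found in 0 of the 33 windows and in 10.8% of all gene windows, which says only that these letters are not in these windows. The 100 bases before the start are shown for 8 genes, with CHR and CCAAT letters in capitals, as examples with and without these elements. The first is a cyclin with 3 CCAAT boxes and no CHR in this stretch, the next 6 have both elements, and Nusap1, which had the lowest adjusted p of the 40 genes in WT cells at 6 h, has neither.
Ccnb2: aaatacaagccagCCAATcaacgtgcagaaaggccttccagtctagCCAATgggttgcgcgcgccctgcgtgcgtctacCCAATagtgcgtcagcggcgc
Cdk1: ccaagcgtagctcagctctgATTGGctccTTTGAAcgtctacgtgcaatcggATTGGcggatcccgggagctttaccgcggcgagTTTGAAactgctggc
Cdc20: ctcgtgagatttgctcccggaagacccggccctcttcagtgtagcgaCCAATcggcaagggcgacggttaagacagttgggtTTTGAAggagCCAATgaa
Espl1: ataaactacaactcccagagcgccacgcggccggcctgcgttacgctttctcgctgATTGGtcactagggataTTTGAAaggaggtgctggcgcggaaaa
Kif11: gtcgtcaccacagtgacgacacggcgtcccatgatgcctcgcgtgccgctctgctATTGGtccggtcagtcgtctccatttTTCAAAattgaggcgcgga
Top2a: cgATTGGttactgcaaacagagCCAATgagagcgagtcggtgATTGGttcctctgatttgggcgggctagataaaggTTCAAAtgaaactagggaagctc
Ube2c: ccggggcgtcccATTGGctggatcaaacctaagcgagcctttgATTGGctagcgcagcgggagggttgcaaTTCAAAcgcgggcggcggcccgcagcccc
Nusap1: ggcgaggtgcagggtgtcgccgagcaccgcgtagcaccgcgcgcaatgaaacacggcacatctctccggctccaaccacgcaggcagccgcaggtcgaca
On GRCm38.p6 these stretches lie at chr9:70421555-70421654, minus strand (Ccnb2), chr10:69352913-69353012, minus strand (Cdk1), chr4:118437344-118437443, minus strand (Cdc20) and chr15:102296193-102296292, plus strand (Espl1). The others lie at chr19:37376282-37376381, plus strand (Kif11), chr11:99024190-99024289, minus strand (Top2a), chr2:164769829-164769928, plus strand (Ube2c) and chr2:119618198-119618297, plus strand (Nusap1). The CHR letters followed a CCAAT box toward the start in Cdk1, Cdc20, Espl1, Kif11, Top2a and Ube2c. In windows of the same length, the CHR letters stood in 38 of 67 (56.7%) other G2/M genes and in 6 of 37 (16.2%) genes of the G1/S transition and DNA replication. The CCAAT letters occurred in 61.2% of the other G2/M genes and 54.1% of the G1/S genes, and at least 2 times in 37.3% and 35.1%.

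The arrays shared 1 scale, with a mean signal of 100 after leaving out the lowest and highest 2% of probe sets, and no 2 arrays held identical values. Haematopoietic markers were present at 0 h: Ptprc (CD45) had mean signals of 1559 to 2978 over the 4 lines, and Csf2rb, the common receptor chain of interleukin-3, 1361 to 2146. The progenitor genes Kit and Elane were close to background, at 7.33 to 12.3 and 4.33 to 8. Of 8 fibroblast or stromal markers 2 passed the filter, Col1a2 and Thy1, and the highest signal of the list on any array was 43, for Thy1. Their summed signal on an array was 57 to 101 in vector, 71 to 112 in WT, 44 to 85 in K298E and 48 to 72 in Δ(177-191) cells at 0 h. Of 6 macrophage markers 4 passed the filter, and their summed signal at 0 h was 1041 to 1158, 1892 to 2038, 1546 to 1650 and 2889 to 2973 in the same order of lines. In the text, a change is a difference of log2(signal + 3) and its error is the standard error (SE) of the model over 16 groups. A gene rose or fell where the limma adjusted p, by Benjamini and Hochberg over 27167 probe sets, was under 0.05.

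In vector and WT cells the mean level of the 40 genes was lowest at 6 h. In vector cells the mean of their log2 values was 9.22, 9.25 and 9.23 on the 0 h arrays, 9.01, 9.03 and 9.02 at 6 h, 9.38, 9.40 and 9.38 at 9 h, and 9.35, 9.32 and 9.32 at 12 h. In WT cells it was 9.14, 9.17 and 9.22 at 0 h, 8.92, 8.87 and 8.89 at 6 h, 9.18, 9.16 and 9.18 at 9 h, and 9.28, 9.28 and 9.23 at 12 h. In both lines the 6 h arrays lay below all arrays of the other times. K298E cells went from 9.22, 9.21 and 9.23 at 0 h to 9.13, 9.12 and 9.15 at 6 h, and to 9.11, 9.09 and 9.16 at 9 h, before 9.27, 9.32 and 9.30 at 12 h. In the Δ(177-191) line the values were 9.06, 9.07 and 9.09 at 0 h, 9.01, 9.05 and 8.92 at 6 h, 9.21, 9.27 and 9.30 at 9 h, and 9.15, 9.19 and 9.10 at 12 h. Here too the 6 h arrays did not overlap with those of 0 h, but 1 of them differed from the others by more than the difference between the groups.

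**Figure D1:**
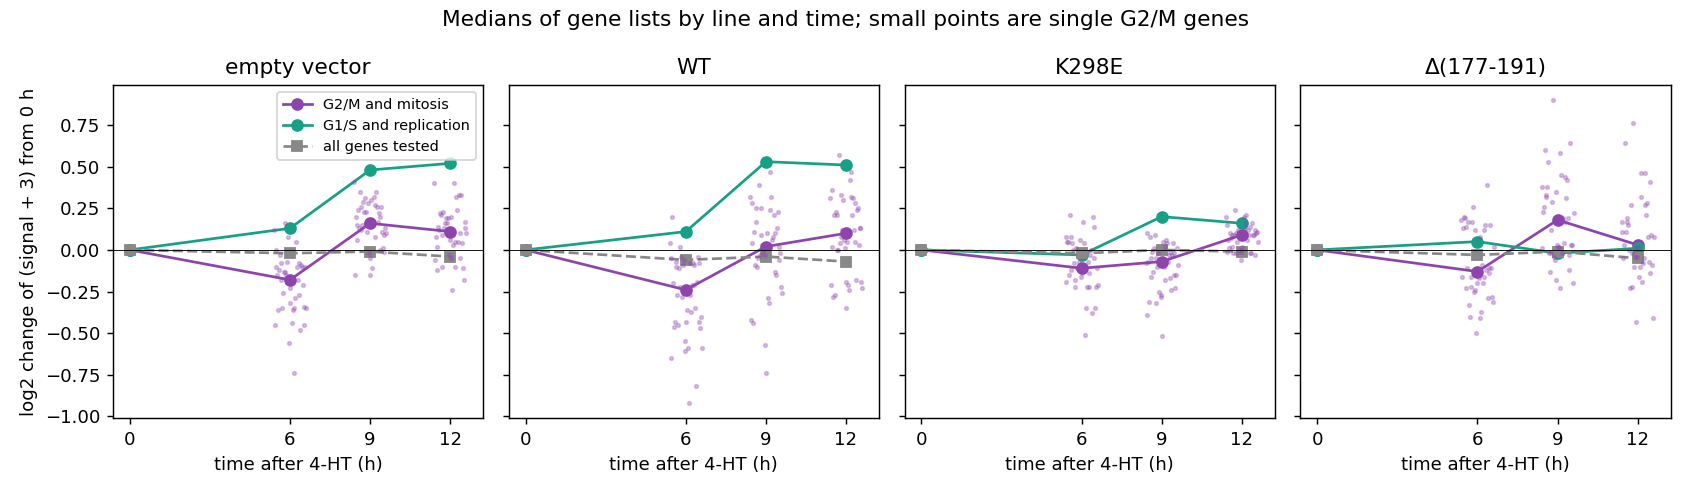
Median log2 change from 0 h (y axis) against time after 4-HT in hours (x axis) in each line, for the 40 G2/M genes, the G1/S and replication genes and all 12800 genes tested, with each G2/M gene as a small point. The G2/M median is lowest at 6 h in every panel, while the G1/S median at 9 h is 0.48 in vector and 0.53 in WT cells. In K298E cells the G2/M median is -0.11 at 6 h and -0.07 at 9 h. That order turned with quantile normalization (-0.1 and -0.12) and with median centring (-0.11 and -0.12).

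At 6 h 11 of the 40 genes fell and 0 rose in vector cells, where 20.4% of all genes tested passed the threshold in either direction and 12.0% fell. The median change was -0.18 for the 40 genes and -0.02 for all genes. WT cells had 20 genes that fell and 0 that rose, with a median of -0.24 against -0.06 for all genes, of which 32.4% passed and 19.0% fell. In K298E cells 2 genes fell, Nusap1 and Racgap1, with a median of -0.11 and 12.4% of all genes past the threshold (7.01% fell). The Δ(177-191) line had 9 genes that fell and 2 that rose, Mad2l1 and Kif2c, with a median of -0.13 and 30.5% of all genes past the threshold (12.2% rose and 18.3% fell). The sign of these 4 medians was the same under every scaling tried, but their order was not: with each array centred on its median, the medians were -0.27 in vector and -0.18 in WT cells. Without each compared array in turn, 7 of the 11 calls held in vector, 13 of 20 in WT, 1 of 2 in K298E and 7 of 11 in Δ(177-191) cells. In K298E cells the count was 1 without any of the 0 h arrays or without 6 h array 2.

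Nusap1 and Racgap1 fell at 6 h in all 4 lines, and Cenpf, Espl1 and Hmmr in 3. Another 18 of the 40 genes fell in none. The 10 genes that fell in both vector and WT cells were Aurkb, Ccnb2, Cenpa, Cenpf, Espl1, Hmmr, Kif2c, Mki67, Nusap1 and Racgap1, which is 10 of 11 for vector and 10 of 20 for WT. Nuf2 was the remaining gene in vector cells. Across the 40 genes, the 6 h change in WT cells had a correlation of 0.67 with that in vector cells, given as a description because the genes share the arrays. It was 0.59 for K298E and 0.52 for Δ(177-191) cells against the same vector arrays.

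**Figure D2:**
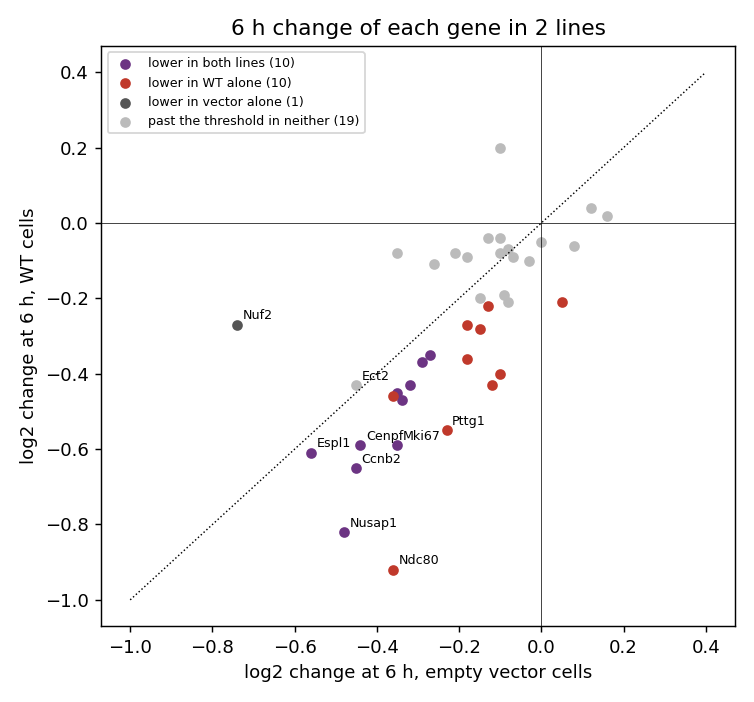
Log2 change from 0 h to 6 h of each of the 40 genes in empty vector cells (x axis) and WT cells (y axis), coloured by the line in which the gene fell, with a dotted line of equal change. Of the points, 10 fell in both lines, 10 in WT alone and 1, Nuf2, in vector alone, and no gene rose in either line.

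At 9 h the calls went in different directions in the 4 lines. In vector cells 10 genes rose and 0 fell (median 0.16; 19.0% of all genes passed, 9.06% rose), and in the Δ(177-191) line 14 rose and 0 fell (median 0.18; 32.4%, 13.7% rose). WT cells had 5 genes that rose and 6 that fell (median 0.02; 30.5%, 14.9% rose and 15.6% fell), and K298E cells 0 and 4 (median -0.07; 4.91%, 2.52% fell). At 12 h 4 genes rose in vector cells (median 0.11; 17.4%, 7.69% rose). At that time 11 rose and 5 fell in WT cells (median 0.10; 30.9%, 14.7% rose and 16.1% fell), and 7 rose and 4 fell in Δ(177-191) cells (median 0.03; 30.4%, 12.2% rose and 18.2% fell). In K298E cells 0 genes passed the limma test at 12 h (median 0.09; 2.32% of all genes). At an unadjusted p under 0.05 there were 3, all with positive changes, against 12.0% of all genes. None of the 480 changes from 0 h reached 2-fold: the largest per line were -0.74 for Nuf2 in vector, -0.92 for Ndc80 in WT, -0.52 for Cenpa in K298E and 0.90 for Mad2l1 in Δ(177-191) cells. Standard errors lay between 0.06 and 0.20, with a median of 0.09.

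Several of these counts and calls depended on 1 array. The 10 genes of vector cells at 9 h became 5 without 0 h array 1 or 9 h array 2, and 6 without 0 h array 3 or 9 h array 3. The 4 genes of vector cells at 12 h became 2, Ccna2 and Birc5, without 0 h array 1 or 12 h array 1. In WT cells the 16 genes at 12 h became 9 without 0 h array 1 or 12 h array 2, and 10 without 0 h array 2 or 12 h array 3. In K298E cells the 4 genes at 9 h became 2, Ccnb2 and Cenpa, without 9 h array 1 or 3, and in Δ(177-191) cells the 11 genes at 12 h became 7 without 0 h array 1 or 12 h array 2. The calls from 0 h that were lost without at least 1 compared array were, in vector cells, Cenpa, Kif2c, Mki67 and Nuf2 at 6 h, Aurka, Aurkb, Bub1, Bub3, Cdca8, Kif20a and Mad2l1 at 9 h, and Cdca8 and Kif20a at 12 h. In WT cells they were Birc5, Bub1b, Cdc25c, Cenpe, Kif2c, Tpx2 and Ttk at 6 h, Aurka, Mad2l1, Mki67 and Top2a at 9 h, and Birc5, Ccnb2, Cdc20, Cdc25b, Cks2, Foxm1, Kif20a, Kif23, Nusap1 and Spc25 at 12 h. In K298E cells Racgap1 at 6 h and Bub1b and Cdc25b at 9 h were lost. Lost in Δ(177-191) cells were Cdc20, Cenpf, Mad2l1 and Ttk at 6 h, Bub3, Cdk1, Foxm1, Ndc80, Nusap1 and Ube2c at 9 h, and Bub1, Bub1b, Espl1, Hmmr, Incenp and Kif2c at 12 h.

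Further probe sets of the called genes mostly, but not always, had the same sign. At 6 h it was 9 of 13 in vector, 21 of 25 in WT and 14 of 18 in Δ(177-191) cells. The probe sets of opposite sign belonged to Hmmr, Cenpf, Kif2c and Nusap1 in vector and to Tpx2, Ttk and Cenpf in Δ(177-191) cells. At 9 h it was 5 of 8 in vector (the rest of Bub1 and Bub3) and 10 of 13 in Δ(177-191) cells (the rest of Bub3 and Nusap1). None of these opposite changes was itself called. For WT it was 3 of 7 at 9 h and 13 of 15 at 12 h. In WT cells a second Bub1 probe set gave -0.52 and -0.31 (both ± 0.42) at 9 and 12 h, and a second Ccna2 probe set -0.01 at both times. Other probe sets of Cenpe and Top2a gave 0.19 and 0.08 at 6 h. None of these 6 values passed the threshold.

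**Figure D3:**
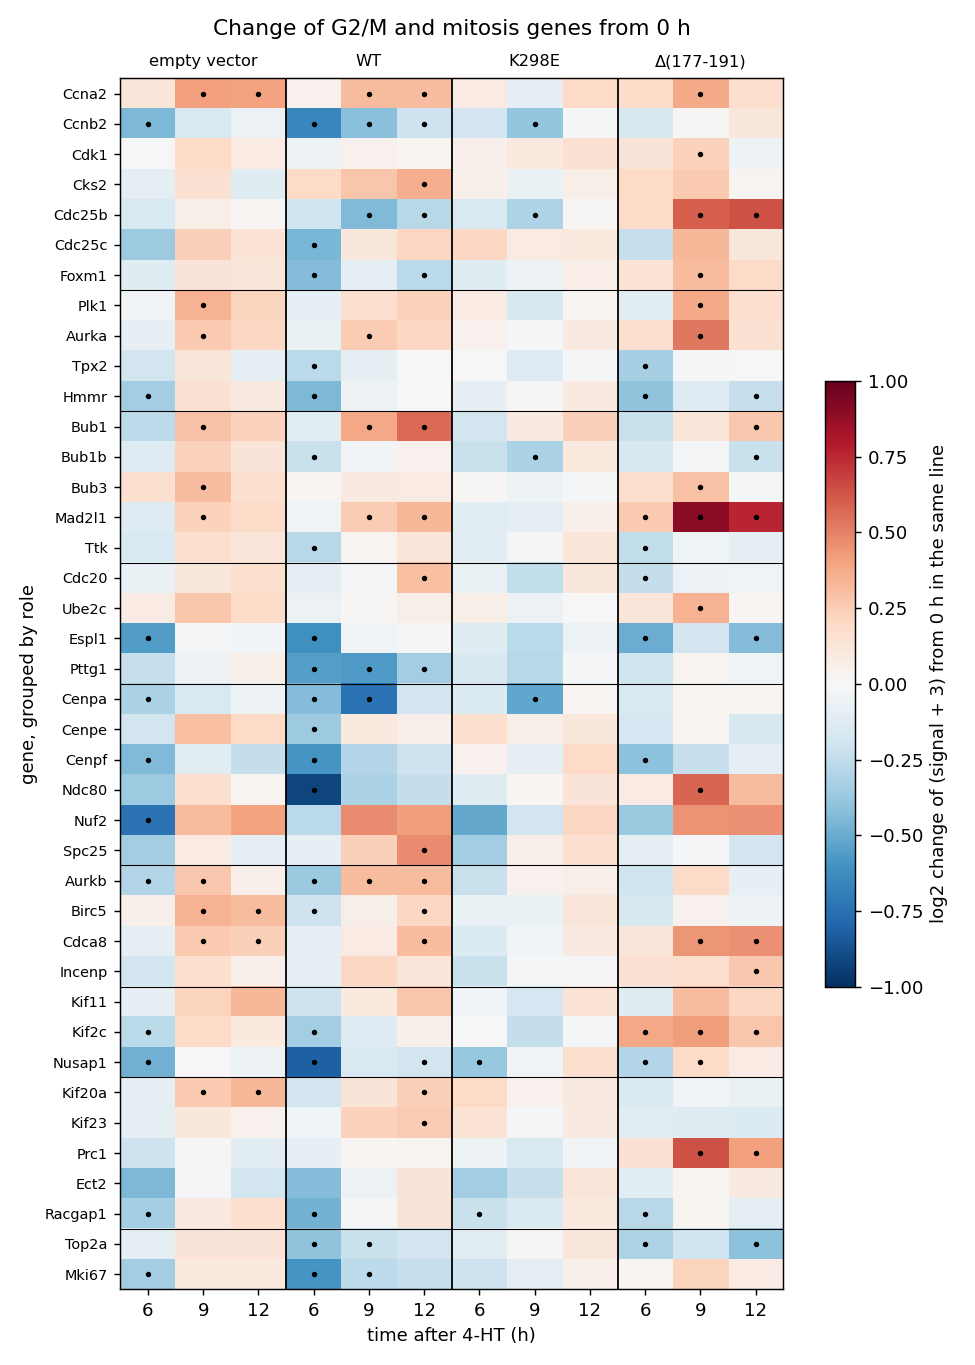
Log2 change from 0 h in the same line (colour) of the 40 genes, in rows grouped by role, at 6, 9 and 12 h after 4-HT in the 4 lines (columns), with a dot where the adjusted p was under 0.05. Blue at 6 h is most common in vector and WT cells, and the darkest red is Mad2l1 in the Δ(177-191) line at 9 h (0.90).

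Among the 7 genes of the cyclins, CDK1 and its regulators, cyclin B2 fell in vector and WT cells. The Ccnb2 signal in vector cells was 1535, 1556 and 1590 at 0 h and 1214, 1100 and 1120 at 6 h. In WT cells it was 1400, 1398 and 1411 at 0 h and 913, 879 and 890 at 6 h. The groups did not overlap in either line, and the change was -0.45 ± 0.06 (SE, adjusted p = 9.23e-07) in vector and -0.65 ± 0.06 (adjusted p = 5.69e-11) in WT cells. The difference between these 2 changes, -0.20, did not pass the threshold (adjusted p = 0.277). In WT cells Ccnb2 was still lower than at 0 h at 9 h (924, 1131 and 1096, change -0.42) and 12 h (1303, 1182 and 1167, change -0.21). That 12 h call was lost without 1 of the compared arrays. Vector cells were at 1524, 1444 and 1513 at 12 h. The difference between the WT and vector changes of Ccnb2 passed the threshold neither at 9 h nor at 12 h. K298E cells started from a lower level, 1166, 1230 and 1170, and passed the threshold at 9 h alone, at 877, 882 and 958 (-0.39 ± 0.06, adjusted p = 4.98e-05). Its 6 h values in K298E, 1048, 1076 and 1006, lay below all 0 h values, and the change of -0.19 missed the threshold (adjusted p = 0.0558).

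For cyclin A2, which acts in both S phase and G2, no 6 h change passed the threshold in any line. The Ccna2 signal in vector cells was 1139, 1151 and 1048 at 0 h, 1190, 1222 and 1218 at 6 h, 1481, 1394 and 1550 at 9 h and 1509, 1372 and 1519 at 12 h. It rose at 9 and 12 h in vector (0.41 and 0.40) and in WT cells (0.32 and 0.31), and at 9 h in the Δ(177-191) line (0.38), where the arrays read 1605, 1344 and 1262. In K298E cells no change of Ccna2 passed the threshold, and the 9 h arrays read 1281, 1063 and 1111 against 1215, 1167 and 1260 at 0 h. Cdk1, the mitotic kinase itself, passed the threshold in 1 of the 12 changes from 0 h, at 9 h in Δ(177-191) cells (0.23), from 1356, 1331 and 1332 to 1750, 1570 and 1408. That call was lost without 1 of the compared arrays. Cks2, a small subunit of the CDK1 complex, rose in WT cells at 12 h (0.36 ± 0.11, adjusted p = 0.0094), from 1465, 1502 and 1802 to 1970, 2052 and 2076. That call was lost without 1 of the compared arrays, and the difference from the vector change, 0.48, missed the threshold (adjusted p = 0.0563).

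The phosphatase genes Cdc25b and Cdc25c encode activators of CDK1. Cdc25b in WT cells was 247, 232 and 240 at 0 h, 215, 205 and 203 at 6 h, 196, 170 and 163 at 9 h and 212, 193 and 187 at 12 h. It fell at 9 h (-0.44 ± 0.09, adjusted p = 0.0001) and 12 h (-0.28), with no overlap between 0 h and any later time. In the Δ(177-191) line it went the other way, from 194, 201 and 183 to 216, 225 and 219 at 6 h, 296, 296 and 288 at 9 h and 332, 309 and 266 at 12 h. These are changes of 0.60 ± 0.09 (adjusted p = 4.51e-07) at 9 h and 0.64 ± 0.09 (adjusted p = 1.29e-07) at 12 h. Cdc25c, with signals between 33 and 103, fell at 6 h in WT cells (-0.46), from 58, 65 and 68 to 58, 33 and 49, groups that overlap at 58. Foxm1, a transcription factor that drives G2/M genes, fell in WT cells at 6 h (-0.43 ± 0.10, adjusted p = 0.00108), from 261, 275 and 221 to 181, 194 and 182. It fell there at 12 h as well (-0.27) and rose in Δ(177-191) cells at 9 h (0.32).

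Among the 4 genes of mitotic entry and the spindle pole, the kinase genes Plk1 and Aurka rose at 9 h, and Hmmr and Tpx2 fell at 6 h. Plk1 in vector cells was 616, 568 and 528 at 0 h, 539, 579 and 556 at 6 h and 760, 707 and 718 at 9 h, a rise of 0.35 ± 0.09 at 9 h (adjusted p = 0.00462) with no overlap. It also rose at 9 h in the Δ(177-191) line (0.38), from 429, 460 and 435 to 573, 553 and 595. In K298E cells the 9 h arrays read 477, 481 and 503 against 514, 565 and 550, a change of -0.16 that did not pass the threshold. Aurka, the spindle pole Aurora kinase, rose at 9 h in vector (0.26), WT (0.25) and most in Δ(177-191) cells (0.53 ± 0.09, adjusted p = 5.03e-06), from 487, 485 and 495 to 820, 638 and 683. Hmmr, a spindle assembly protein, fell at 6 h in vector (-0.35), WT (-0.45) and Δ(177-191) cells (-0.40). Not all Hmmr probe sets had this sign in vector cells. Tpx2, the activator of Aurora A at the spindle, fell at 6 h in WT (-0.27) and Δ(177-191) cells (-0.33). Of 3 further Tpx2 probe sets, 1 fell in WT cells (-0.39, adjusted p = 0.0135) and was at -0.01 in Δ(177-191) cells, and the others had positive changes in both lines (0.07 to 0.23), without passing the threshold.

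The 5 spindle checkpoint genes held Mad2l1, the gene with the largest rise from 0 h. Mad2l1 in the Δ(177-191) line was 824, 752 and 839 at 0 h, 964, 937 and 994 at 6 h, 1563, 1485 and 1468 at 9 h and 1304, 1433 and 1370 at 12 h. All later arrays lay above the 0 h arrays, with changes of 0.26 at 6 h, 0.90 ± 0.08 at 9 h (adjusted p = 4.58e-13) and 0.76 ± 0.08 at 12 h (adjusted p = 4.47e-11). In vector cells it went from 825, 935 and 891 to 1010, 1027 and 1060 at 9 h (0.23), and in WT cells from 771, 716 and 871 to 970, 1004 and 975 at 12 h (0.33). Bub1, a checkpoint kinase, rose in WT cells to 584, 684 and 547 at 12 h from 388, 375 and 451 (0.57 ± 0.10, adjusted p = 1.06e-05). Bub1b, which encodes BubR1, fell at 6 h in WT cells (-0.22), and at 9 h in K298E cells (-0.32), from 562, 517 and 509 to 418, 446 and 410, groups that do not overlap. It was also lower in Δ(177-191) cells at 12 h (-0.22), and each of these 3 calls was lost without 1 of the compared arrays. Ttk, the checkpoint kinase Mps1, fell at 6 h in WT (-0.28) and Δ(177-191) cells (-0.25). Its probe sets differed in sign in the latter. Bub3 rose at 9 h in vector (0.31) and Δ(177-191) cells (0.29), and not all Bub3 probe sets had this sign in either line.

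Among the genes of sister separation and the anaphase-promoting complex, Espl1, which encodes the protease separase, was 242, 254 and 204 in vector cells at 0 h and 137, 183 and 153 at 6 h, and 211, 197 and 182 against 133, 148 and 133 in Δ(177-191) cells. It fell by 0.56 ± 0.12 (adjusted p = 0.000372) in vector, 0.61 (adjusted p = 5.6e-05) in WT and 0.50 (adjusted p = 0.000794) in Δ(177-191) cells, and no arrays overlapped in these lines. In K298E cells it was 224, 245 and 264 at 0 h and 230, 197 and 247 at 6 h, which overlap. Pttg1, securin, the inhibitor of separase, fell in WT cells at all 3 times: from 2758, 2868 and 2928 at 0 h to 2365, 1779 and 1758 at 6 h, 1829, 2030 and 1891 at 9 h and 2374, 2165 and 2189 at 12 h. Its changes were -0.55, -0.57 and -0.35 (adjusted p = 1.07e-05, 5.12e-06 and 0.00416), all without overlap, and no change of Pttg1 from 0 h passed the threshold in another line. Cdc20, the activator of the anaphase-promoting complex, rose in WT cells at 12 h (0.30), from 1389, 1500 and 1683 to 1969, 1853 and 1811, and fell in Δ(177-191) cells at 6 h (-0.24). Ube2c, its ubiquitin-conjugating partner, rose in the Δ(177-191) line at 9 h (0.35). These calls of Cdc20 and Ube2c were each lost without 1 of the compared arrays.

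The 6 centromere and kinetochore genes had the lowest medians at 6 h among roles of more than 3 genes, -0.35 in vector and -0.40 in WT cells. Ndc80, the microtubule-binding subunit of the outer kinetochore, was 85, 94 and 110 in WT cells at 0 h and 57, 44 and 48 at 6 h, a change of -0.92 ± 0.16 (adjusted p = 2.03e-05) without overlap. In vector cells it was 84, 99 and 83 against 71, 62 and 72, which also did not overlap, but the change of -0.36 missed the threshold (adjusted p = 0.15). The difference between the lines was -0.55 (adjusted p = 0.221). Its partner Nuf2 had the opposite order: -0.74 ± 0.20 in vector cells (162, 162 and 175 at 0 h; 85, 82 and 137 at 6 h; adjusted p = 0.00765) and -0.27 in WT cells (adjusted p = 0.382). The Nuf2 call in vector cells was lost without 1 of the compared arrays. Cenpf, a large kinetochore protein of G2 and M, was 450, 457 and 419 in vector cells at 0 h and 369, 294 and 313 at 6 h, and 411, 413 and 420 against 250, 293 and 284 in WT cells. It fell by 0.44 in vector, 0.59 in WT and 0.41 in Δ(177-191) cells, while K298E arrays overlapped (385, 409 and 381 against 387, 449 and 372). Not all Cenpf probe sets had a change of this sign in vector and Δ(177-191) cells.

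Cenpa, the centromeric histone, fell in WT cells at 6 and 9 h. Its WT signal was 1274, 1197 and 1354 at 0 h, 1008, 876 and 955 at 6 h, 824, 703 and 757 at 9 h and 1177, 1085 and 1080 at 12 h. The 9 h change was -0.74 ± 0.10 (adjusted p = 1.2e-07), and that of K298E cells at the same time was -0.52 (± 0.10, adjusted p = 0.00067), with 775, 786 and 743 against 1220, 1057 and 1037. Vector cells were at 1174, 1236 and 994 at 9 h, against 1182, 1317 and 1262. A second Cenpa probe set gave 0.15 in WT and 0.18 in K298E cells at 9 h, neither past the threshold. Cenpe, a kinetochore motor, fell at 6 h in WT cells (-0.36), and Spc25, of the same complex as Ndc80, rose in WT cells at 12 h (0.47 ± 0.18, adjusted p = 0.0418), a call lost without 1 array.

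In the chromosomal passenger complex, Aurkb, its kinase, was 412, 424 and 438 in vector cells at 0 h, 332, 357 and 350 at 6 h, 516, 517 and 504 at 9 h and 439, 461 and 421 at 12 h. In WT cells it was 373, 409 and 401 at 0 h, 297, 346 and 274 at 6 h, 462, 514 and 502 at 9 h and 515, 486 and 473 at 12 h. It thus fell and then rose past its starting level, by -0.29 and 0.27 in vector and by -0.37, 0.32 and 0.32 in WT cells. No change of Aurkb from 0 h passed the threshold in K298E or Δ(177-191) cells. Birc5 (survivin) rose in vector cells at 9 h (0.35) and 12 h (0.32), and in WT cells it fell at 6 h (-0.21) and rose at 12 h (0.21). Cdca8 (borealin) rose at 12 h in vector (0.24, a call lost without 1 array), WT (0.31) and Δ(177-191) cells (0.46 ± 0.08, adjusted p = 3.66e-05), and Incenp, the scaffold, rose in Δ(177-191) cells at 12 h (0.27). The Incenp call was lost without 1 of the compared arrays, and its relative change against vector, 0.22, did not pass the threshold (adjusted p = 0.318).

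The spindle motors and bundlers held the gene with the lowest adjusted p at 6 h in WT cells. Nusap1, a microtubule-bundling protein of the spindle, was 1186, 1258 and 1101 in vector cells at 0 h and 828, 881 and 835 at 6 h. In WT cells it was 1107, 1159 and 1248 at 0 h and 671, 665 and 647 at 6 h, in K298E cells 1083, 1108 and 1156 against 878, 873 and 826, and in Δ(177-191) cells 1032, 1041 and 1022 against 874, 864 and 791. No arrays of 0 and 6 h overlapped in any line. The changes were -0.48 in vector (adjusted p = 9.8e-07), -0.82 in WT (adjusted p = 5.43e-13), -0.38 in K298E (adjusted p = 0.000107) and -0.29 in Δ(177-191) cells (adjusted p = 0.000867), each ± 0.07. At 9 h its changes from 0 h were 0.00, -0.15, -0.03 and 0.19 in the same order of lines, the last past the threshold. A second Nusap1 probe set had a larger error (0.26) and gave 0.28 in vector and -0.13 in WT cells at 6 h, neither past the threshold. Kif2c, a microtubule depolymerase, fell at 6 h in vector (-0.27, adjusted p = 0.05 as rounded, and under the threshold unrounded) and WT cells (-0.35), both calls lost without 1 of the compared arrays, and rose in Δ(177-191) cells (0.39 ± 0.10, adjusted p = 0.0015), from 251, 271 and 264 to 365, 364 and 309. The Kif2c probe sets differed in sign at 6 h in vector cells. Kif11, the bipolar spindle motor, and Ect2, the exchange factor of cytokinesis, were the 2 genes with no change from 0 h past the threshold in any line.

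Of the 5 central spindle and cytokinesis genes, Racgap1, which encodes the GTPase-activating subunit of centralspindlin, fell in every line at 6 h. Its signals at 0 and 6 h were 496, 478 and 529 against 416, 385 and 388 in vector cells and 503, 526 and 443 against 324, 362 and 373 in WT cells. They were 516, 519 and 524 against 447, 429 and 457 in K298E cells and 454, 471 and 424 against 344, 386 and 379 in Δ(177-191) cells, with no overlap in any line. The changes were -0.34, -0.47, -0.22 and -0.28, each ± 0.07, and the K298E call was lost without any of its 0 h arrays or without 6 h array 2. A second Racgap1 probe set fell in WT cells (-0.51) and was at -0.24, -0.19 and -0.27 in the others without passing the threshold. Kif20a, a motor of the central spindle, rose at 9 h (0.26) and 12 h (0.33) in vector cells, from 259, 299 and 288 to 403, 326 and 339 at 12 h, and in WT cells it rose at 12 h (0.24). Kif23, the motor subunit of centralspindlin, rose in WT cells at 12 h (0.25). Prc1, which bundles antiparallel microtubules at the midzone, rose in the Δ(177-191) line, from 709, 835 and 794 at 0 h to 1224, 1111 and 1310 at 9 h (0.64 ± 0.09, adjusted p = 1.3e-07) and 1030, 1038 and 1045 at 12 h (0.41). A second Prc1 probe set rose there as well, by 0.43, 0.66 and 0.62 at 6, 9 and 12 h.

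Top2a, the topoisomerase that untangles sister chromatids, was 2465, 2568 and 2732 in WT cells at 0 h and 1985, 1972 and 1924 at 6 h, a change of -0.40 ± 0.08 (adjusted p = 0.000141). In the Δ(177-191) line it was 2140, 1973 and 2149 at 0 h, 1710, 1804 and 1553 at 6 h and 1550, 1701 and 1479 at 12 h, with changes of -0.31 and -0.41 and no overlap. Vector cells read 2354, 2492 and 2552 at 0 h and 2354, 2283 and 2257 at 6 h, groups that meet at 2354, with a change of -0.10 that did not pass the threshold. Mki67, the proliferation marker Ki-67, was 1643, 1687 and 1659 in WT cells at 0 h, 955, 1084 and 1298 at 6 h and 1522, 1446 and 1220 at 9 h. It fell at 6 h in vector (-0.35) and WT cells (-0.59 ± 0.09, adjusted p = 2.23e-06), and in the Δ(177-191) line the 6 h arrays (1394, 1330 and 1327) lay within the range of the 0 h arrays (1433, 1312 and 1250).

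**Figure D4:**
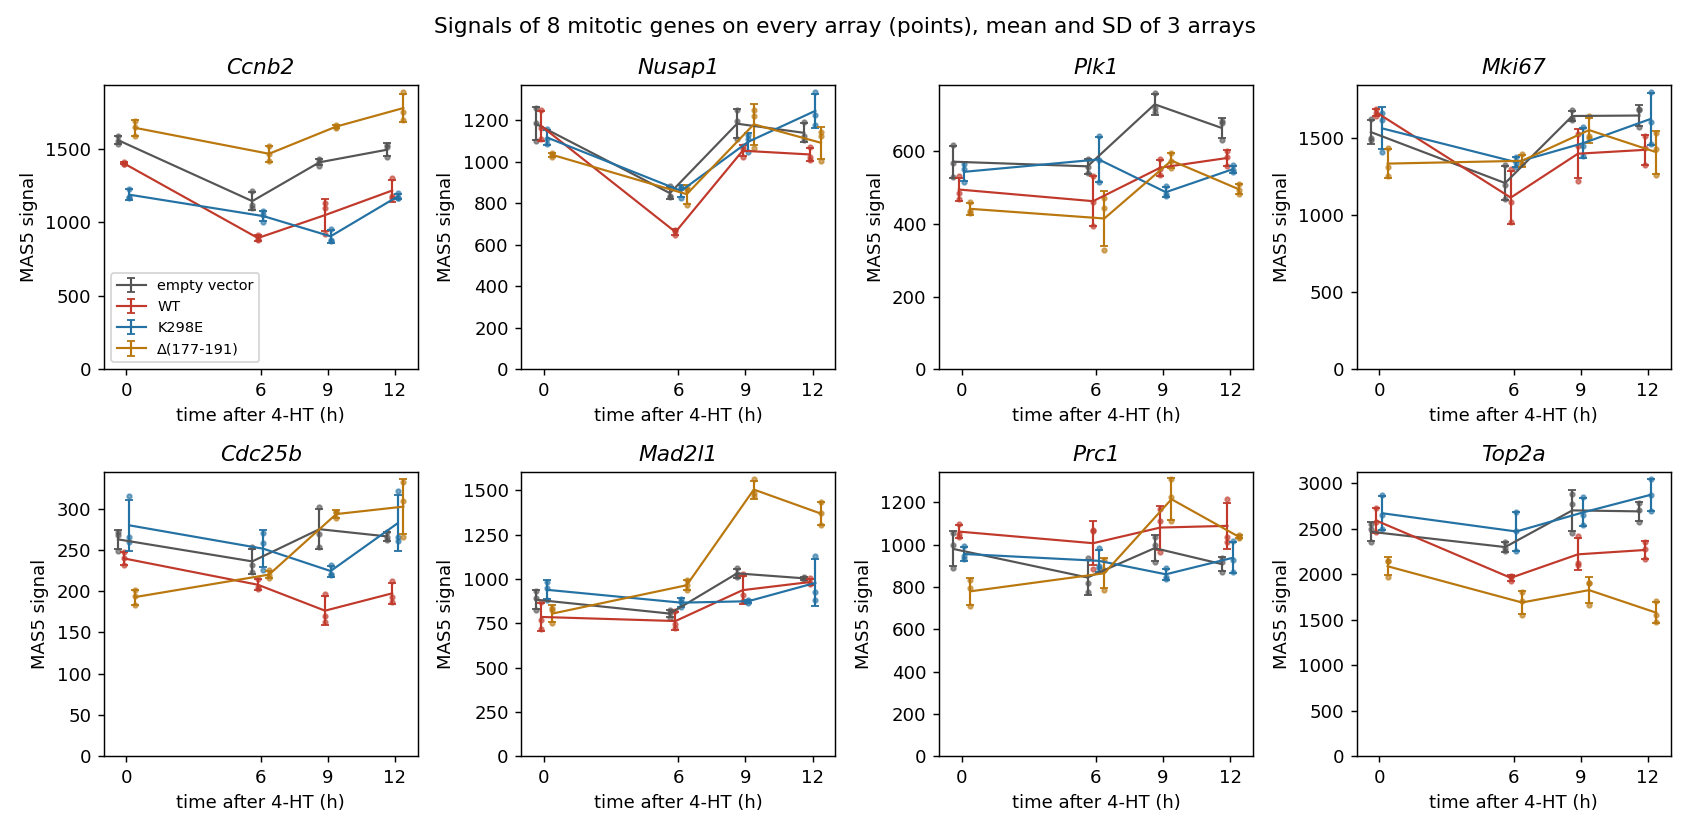
MAS5 signal (y axis, linear from 0) of 8 genes on every array against time after 4-HT in hours (x axis), with the mean and SD of 3 arrays per line as bars and lines joining the means. Ccnb2, Nusap1 and Mki67 drop at 6 h in vector and WT cells, and Mad2l1, Cdc25b and Prc1 climb in the Δ(177-191) line.

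The return from 6 to 12 h was also tested directly, on contrasts that use the same 6 h arrays as the changes at 6 h. In vector cells 22 genes were higher at 12 h than at 6 h and 0 were lower (median 0.28, all genes -0.01; 9.06% of all genes passed, 5.02% higher). In WT cells 29 were higher and 0 lower (median 0.38; 15.2%, 8.74% higher), in Δ(177-191) cells 11 and 0 (median 0.16; 18.3%, 9.70% higher), and in K298E cells 6 and 0 (median 0.17; 10.6%, 5.71% higher). Bub1, Nuf2, Nusap1 and Racgap1 rose in all 4 lines, and Aurkb, Bub1b, Ccnb2, Cdca8 and Mad2l1 in 3. Without 1 of the compared arrays, the call of Nuf2 was lost in WT and K298E cells and that of Racgap1 in Δ(177-191) cells. That of Bub1b was lost in vector, WT and K298E cells, that of Aurkb in K298E and that of Cdca8 in vector cells. Calls that held without each compared array in turn were 11 of 22 in vector, 14 of 29 in WT, 3 of 6 in K298E and 7 of 11 in Δ(177-191) cells. Of 9 further probe sets of the called genes in the Δ(177-191) line 5 had the same sign, and 1 of Tpx2 fell (-0.68, adjusted p = 4.88e-05). Second probe sets of Bub1 (-1.06 ± 0.42, adjusted p = 0.0858), Nusap1 (-0.25) and Racgap1 (-0.08) had the opposite sign there. In the other lines 19 of 22 had the same sign in vector, 23 of 29 in WT and 4 of 5 in K298E cells. The rest belonged to Hmmr, Ttk and Kif2c in vector and to Nusap1 in K298E cells. In WT cells they belonged to Tpx2, Ttk, Cenpe, Nusap1 and Kif23. Their opposite changes in these 3 lines did not pass the threshold. The largest rises were 1.13 (Nuf2), 0.53 (Espl1) and 0.50 (Racgap1 and Cdc25c) in vector cells and 0.69 (Nuf2 and Aurkb), 0.68 (Bub1) and 0.67 (Ndc80 and Cdc25c) in WT cells. In K298E cells they were Nuf2 (0.72), Nusap1 (0.53) and Bub1 (0.42), and in Δ(177-191) cells Nuf2 (0.82), Mad2l1 (0.50) and Bub1 (0.49). The count in vector cells was 14 without 6 h array 1 or 3 or 12 h array 1 or 3, and that in Δ(177-191) cells 7 without 6 h array 3.

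Whether the constructs changed these genes differently from the empty vector was asked of the relative change, which is the change from 0 h in a construct line minus that in vector cells. All relative changes share the vector arrays. For WT, 1 gene passed at 6 h, Nusap1 (-0.35 ± 0.10, adjusted p = 0.0239), where 6.23% of all genes passed and 2.97% were lower. That call was lost without vector 0 h array 3, vector 6 h array 2, WT 0 h array 3 or WT 6 h array 3, and the count was 2 without WT 6 h array 1. At 9 h 3 genes were lower, Cenpa (-0.59 ± 0.14, adjusted p = 0.00577), Pttg1 (-0.52 ± 0.13, adjusted p = 0.0117) and Cdc25b (-0.50 ± 0.12, adjusted p = 0.00745), where 6.09% of all genes passed and 2.84% were lower. These 3 calls held without each compared array in turn, and the count was 5 without WT 9 h array 1. It was 0 with median centring, and 0 without the arrays numbered 2, or those numbered 3, of every group. At 12 h 0 genes passed the limma test (7.18% of all genes), and the lowest adjusted p was 0.0563, for Cks2 (0.48). At an unadjusted p under 0.05 there were 9, 4 positive and 5 negative, against 18.1% of all genes. The count past the adjusted threshold was 1 without vector 12 h array 3 or WT 0 h array 3. The median relative change was -0.09, -0.16 and -0.05 at 6, 9 and 12 h, and with median centring it turned to 0.07 at 6 h and 0.13 at 12 h.

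For K298E 0 genes passed at 6 h by limma (1.29% of all genes), with a median of 0.10. At an unadjusted p under 0.05 there were 7, all positive, against 9.84% of all genes. At 9 h 4 were lower: Bub1b (-0.54 ± 0.12, adjusted p = 0.00247), Plk1 (-0.51, adjusted p = 0.0136), Ccna2 (-0.49, adjusted p = 0.00623) and Birc5 (-0.43, adjusted p = 0.0179), where 5.15% of all genes passed, 1.96% lower, and the median was -0.23. In these 4 genes the vector line had risen at 9 h, or was at 0.23 for Bub1b without passing, and the K298E line had changes of -0.32, -0.16, -0.08 and -0.07. The calls of Plk1 and Birc5 were lost without 1 of the compared arrays. The count at 9 h was 0 with median centring and 8 with quantile normalization. It was 2 without the arrays numbered 1 of every group, and 0 without those numbered 2 or those numbered 3. At 12 h 0 passed by limma (5.60% of all genes), and the median was -0.04. At an unadjusted p under 0.05 there were 2, both positive, against 17.7% of all genes.

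The Δ(177-191) line had a median relative change of 0.07, 0.03 and -0.05 at 6, 9 and 12 h, of which that at 9 h turned to -0.10 with median centring and -0.02 with quantile normalization. At 6 h 4 genes were higher: Kif2c (0.66 ± 0.14, adjusted p = 0.000345), Mad2l1 (0.39, adjusted p = 0.00717), Prc1 (0.36, adjusted p = 0.0408) and Ccnb2 (0.28, adjusted p = 0.0268), where 18.2% of all genes passed and 8.15% were higher. At 9 h 3 were higher, Mad2l1 (0.68 ± 0.11, adjusted p = 3.98e-06), Prc1 (0.63 ± 0.12, adjusted p = 0.000145) and Cdc25b (0.54 ± 0.12, adjusted p = 0.00114), and 3 were lower, Top2a (-0.32), Birc5 (-0.31) and Hmmr (-0.28), where 22.3% passed (9.66% higher and 12.7% lower). At 12 h the same 3 were higher, by 0.58, 0.52 and 0.62, and 6 were lower: Top2a (-0.53 ± 0.11, adjusted p = 0.000523), Kif20a (-0.40), Birc5 (-0.37), Bub1b (-0.34), Hmmr (-0.33) and Racgap1 (-0.26), again with 22.3% of all genes past the threshold (9.94% higher and 12.4% lower). The counts of 4, 6 and 9 of 40 are thus close to or below the shares of all genes past the threshold in either direction. Mad2l1, Prc1 and Cdc25b at 9 and 12 h, Top2a at 12 h, and Kif2c and Mad2l1 at 6 h held without each compared array in turn. The count at 6 h was 2 without vector 6 h array 2 or Δ(177-191) 6 h array 2, and that at 9 h was 3 without vector 0 h or 9 h array 2 or Δ(177-191) 0 h array 1 or 3. With median centring 0 genes passed at any of the 3 times.

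**Figure D5:**
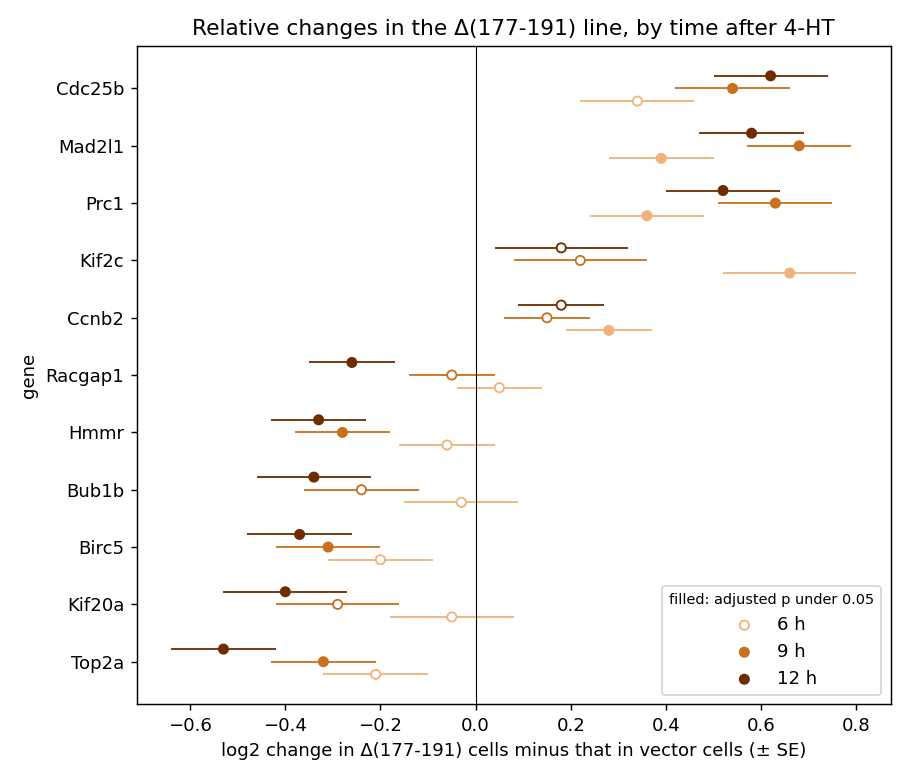
Log2 change from 0 h in the Δ(177-191) line minus that in vector cells (x axis, bars ± SE of the model) at 6, 9 and 12 h after 4-HT for the 11 genes past the threshold at 1 time or more (y axis), filled where the adjusted p was under 0.05. Cdc25b, Mad2l1 and Prc1 stand to the right of 0 at all times, and Top2a moves from -0.21 to -0.53.

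Before 4-HT, the Δ(177-191) line already differed from vector cells. At 0 h 12 of the 40 genes were lower and 1 higher in Δ(177-191) than in vector cells (median -0.19, all genes -0.01; negative under each scaling), where 28.5% of all genes passed (13.2% higher and 15.3% lower). The lowest were Ndc80 (36, 60 and 73 against 84, 99 and 83; -0.68 ± 0.16, adjusted p = 0.00134), Cenpe (146, 163 and 165 against 222, 232 and 223; -0.51, adjusted p = 0.000449) and Cdc25b (-0.44, adjusted p = 0.0001). Plk1 (-0.37), Cdk1 (-0.30), Top2a (-0.24), Cdc20 (-0.22) and Nusap1 (-0.19) were also lower, with Tpx2, Prc1, Kif2c and Ube2c. The calls of Cdc20, Kif2c, Ndc80, Nusap1, Top2a and Ube2c were lost without 1 of the compared arrays. Kif23 was the higher gene (525, 530 and 530 against 385, 365 and 366; 0.50 ± 0.09, adjusted p = 2.9e-05). Markers of myeloid cells differed between the same arrays. Of 4 macrophage markers tested 3 were higher in Δ(177-191) than in vector cells at 0 h and 0 lower, and of 11 myeloid progenitor markers 3 were higher and 3 lower. Mean signals in vector and Δ(177-191) cells were 410 and 1675 for the macrophage marker Cd68, 2.67 and 123 for the myeloid receptor Cd33, 478 and 1321 for Spi1, which encodes the factor PU.1, and 1953 and 768 for the progenitor factor Myb. Their part in the results of the Δ(177-191) line was not tested. In K298E cells 1 of the 40 genes, Ccnb2, was lower (-0.39 ± 0.06, adjusted p = 4.72e-05; 6.45% of all genes passed, 3.45% lower), and its arrays lay below all vector arrays. In WT cells 0 genes passed by limma (5.71% of all genes), with 8 at an unadjusted p under 0.05, all negative. The share of all genes at that unadjusted level was 18.4%. Without WT 0 h array 3, 1 of the 40 genes passed the limma test. Of the 3 genes with higher relative changes in the Δ(177-191) line at 9 and 12 h, Cdc25b and Prc1 thus started lower there. Kif2c, with the highest relative change at 6 h, also started lower. Its mean signal was 262 in Δ(177-191) and 331 in vector cells at 0 h, and 346 and 272 at 6 h. Cdc25b ended above vector cells at 12 h (332, 309 and 266 against 262, 265 and 272), with every Δ(177-191) array but 266 above the vector arrays.

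For a comparison of WT with each mutant form, the changes at 6, 9 and 12 h were averaged within a line. Lower or higher here refers to this mean change from 0 h, not to the level. Against K298E, 5 genes were lower in WT and 0 higher (17.5% of all genes passed, 9.09% lower): Cenpf (-0.40 ± 0.13, adjusted p = 0.0313), Pttg1 (-0.34, adjusted p = 0.0307), Nusap1 (-0.30, adjusted p = 0.00582), Top2a (-0.27, adjusted p = 0.0457) and Ccnb2 (-0.23, adjusted p = 0.031). The 5 became 3 without WT 0 h array 1 or K298E 0 h array 2, and 2 without WT 0 h array 3. They became 1 without WT 0 h array 2 or K298E 0 h array 1, and only Nusap1 held without each array in turn. The count was 0 with median centring and 0 without the arrays numbered 2 of every group. Without those numbered 3 it was 1, a gene higher in WT, and Nusap1 missed the threshold (-0.29, adjusted p = 0.0674). Against Δ(177-191), 11 genes were lower in WT and 0 higher (25.3% of all genes, 11.1% lower), and all 11 calls held without each compared array in turn. The count was 7 without the arrays numbered 2 of every group and 1 with median centring. The 3 lowest were Ndc80 (-0.82 ± 0.19, adjusted p = 0.00103), Cdc25b (-0.78 ± 0.10, adjusted p = 6.37e-08) and Kif2c (-0.51 ± 0.11, adjusted p = 0.000572). Foxm1 (-0.48), Mki67 (-0.46), Mad2l1 (-0.46), Pttg1 (-0.42), Cenpa (-0.42), Ccnb2 (-0.41), Prc1 (-0.41) and Nusap1 (-0.38) followed. Of the 11, Ndc80, Cdc25b, Kif2c, Prc1 and Nusap1 were lower in Δ(177-191) than in vector cells at 0 h, and the others did not pass there. Mean Ndc80 signals at 0, 6, 9 and 12 h were 96.3, 49.7, 76.3 and 80.7 in WT and 56.3, 57.7, 82.3 and 69.3 in Δ(177-191) cells. For Cenpa a second probe set gave 0.61, and the mean of its probe sets 0.09. With the mean of all probe sets of a gene, Pttg1 (-0.30, adjusted p = 0.249) and Nusap1 (-0.27, adjusted p = 0.167) also missed the threshold against Δ(177-191). Against K298E, Pttg1, Nusap1 and Cenpf missed it with that mean (adjusted p = 0.195, 0.133 and 0.104). Over all 40 genes the median was -0.01 against K298E and -0.08 against Δ(177-191), which turned to 0.13 and 0.12 with median centring, under which the median of all genes moved from -0.04 to 0.10 and from -0.03 to 0.17.

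Genes beyond the 40 were read from lists chosen by function, also with earlier results of these data known. Of 81 other G2/M and mitosis genes tested, 18 fell and 3 rose at 6 h in vector cells, 40 and 5 in WT, 9 and 0 in K298E and 17 and 8 in Δ(177-191) cells. The shares of all genes past the threshold there were 20.4%, 32.4%, 12.4% and 30.5%. The lowest in vector cells were Cdca3 (-0.57 ± 0.07, adjusted p = 2e-08), a trigger of mitotic entry, and Kntc1 (-0.54), a kinetochore protein. In WT cells they were Iqgap3 (-0.85 ± 0.08, adjusted p = 1.39e-11) and Kif22 (-0.85 ± 0.30, adjusted p = 0.0335), a chromokinesin, and the highest were Mad1l1 (0.60) and Trip13 (0.53), both spindle checkpoint genes. In the Δ(177-191) line the extremes were wider, with Sapcd2 (-1.67 ± 0.15, adjusted p = 3.57e-12) and Parpbp (-1.19) at the low end and Anln (1.02 ± 0.09, adjusted p = 9.14e-13), the cytokinesis scaffold anillin, and Sgo2a (0.93), shugoshin, at the high end. At 12 h against 6 h 24 of the 81 rose and 0 fell in vector cells (9.06% of all genes passed), and 41 and 0 in WT cells (15.2%).

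Of 46 tested genes of the G1/S transition and DNA replication, 12 rose and 1, Tk1 (-0.56), fell at 6 h in vector cells (20.4% of all genes passed), where the 40 G2/M genes had 0 and 11. At 9 h 40 rose and 0 fell in vector (median 0.48; 19.0% of all genes) and 36 and 0 in WT cells (median 0.53; 30.5%), with Ccne1 (1.0) and Gins1 (0.84) highest in vector and Fen1 (1.40) and Gins1 (1.17) in WT. At 12 h it was 37 and 0 (median 0.52; 17.4%) and 35 and 0 (median 0.51; 30.9%). In K298E cells 11 rose at 9 h (4.91%) and 4 at 12 h (2.32%). In the Δ(177-191) line 6 rose and 11 fell at 9 h (32.4%), and its relative change was lower for 32 of the 46 at 9 h, with E2f1 (-1.03) and Tk1 and Uhrf1 (both -1.0) lowest, and for 28 at 12 h, with Tk1 (-1.19) and Uhrf1 (-1.15) lowest (22.3% of all genes passed at each time). The 40 G2/M genes had medians of 0.03 and -0.05 in the same contrasts.

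Of 16 tested genes of the CHR-binding repressor complexes and the p53-p21 pathway, Tfdp2, a partner of E2F factors, fell at 6 h in all 4 lines: the change was -0.65 for vector, -1.03 for WT, -0.58 for K298E and -1.07 for Δ(177-191). In WT cells Gadd45a, a stress-inducible gene that can arrest cells at G2, rose by 0.93, 1.34 and 1.41 at 6, 9 and 12 h, and in the Δ(177-191) line by 1.84, 1.98 and 1.65. It fell by 0.59, 0.72 and 0.86 in vector cells. Cdkn1a, which encodes the CDK inhibitor p21, fell in WT cells after 9 h (-0.54) and 12 h (-0.75) and in the Δ(177-191) line at 9 h (-0.45) and 12 h (-0.54). Rbl2, the p130 subunit of the DREAM complex, fell at 6 h in vector (-0.42), WT (-0.71 ± 0.09, adjusted p = 9.04e-08) and Δ(177-191) cells (-0.60).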

How the data were processed

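Signals of 48 Affymetrix MOE430_2 arrays, 3 in each of 16 groups, were analysed. The authors deposited MAS5 signal intensity values, per the submitters' processing notes, with no version given there. Here log2(signal + 3) was fitted with limma 3.58.1 (R 4.3.3) as 16 group means, with eBayes and an intensity trend, on 27167 probe sets whose highest group mean exceeded 4.09 on this log2 scale, the median, and p-values were adjusted by Benjamini and Hochberg over all of them at a threshold of 0.05. Of 45037 probe sets that are not controls, 34945 were paired with 1 gene symbol, 932 with several and 9160 with none; the brightest probe set stood for a gene. The number of arrays limits the precision. Named genes were the members past the threshold in the comparison described, and the most extreme called members of the other lists. The members and the lists were chosen with earlier results of these data known. Ccnb1 is not analysed here. Each construct is 1 line and nothing ties array numbers to separate cultures across groups, so p-values measure only the spread between arrays. Arrays with the same number did not deviate together: the mean correlation of deviations was 0.012, and -0.006 for other numbers, over 120 pairs of groups, and none of these pairs of groups had all correlations over 0.1. The fit was tested on simulated data. Alternatives were another pseudocount, no filter, quantile normalization, median centring, a replicate block, the compared arrays alone, the mean of all probe sets of a gene, arrays left out, and, chosen after seeing the data, centring on probe sets with a mean signal of 100 or more.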

Additional observations from a re-analysis of the deposited data

Results flagged for a closer look

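For these results the difference between lines in the change from 0 h passed the test. Against the vector, 1 of the 40 genes passed the threshold at 6 h and 3 at 9 h for WT (6.23% and 6.09% of all genes). For K298E 4 passed at 9 h (5.15% of all genes). For Δ(177-191) 4 passed at 6 h and 6 at 9 h (18.2% and 22.3% of all genes). With median centring 0 of the 40 genes passed in each of these comparisons, and 0 in Δ(177-191) minus vector at 12 h. At that time 22.3% of all genes passed in the main fit. At 12 h the Δ(177-191) minus vector differences were 0.62 for Cdc25b, 0.58 for Mad2l1, 0.52 for Prc1, -0.53 for Top2a, -0.40 for Kif20a, -0.37 for Birc5, -0.34 for Bub1b, -0.33 for Hmmr and -0.26 for Racgap1.

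In the mean change over 6, 9 and 12 h, WT minus K298E was -0.40 for Cenpf, -0.34 for Pttg1, -0.30 for Nusap1, -0.27 for Top2a and -0.23 for Ccnb2. WT minus Δ(177-191) was -0.82 for Ndc80, -0.78 for Cdc25b, -0.51 for Kif2c, -0.48 for Foxm1, -0.46 for Mki67 and Mad2l1, -0.42 for Cenpa and Pttg1, -0.41 for Ccnb2 and Prc1, and -0.38 for Nusap1. A second Cenpa probe set gave 0.61 in the last comparison. With the mean of all probe sets of a gene, Pttg1 and Nusap1 missed the threshold in both comparisons, and Cenpf in WT minus K298E.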

How the results depend on the processing

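With 3 arrays a group and changes under 2-fold, the number of genes past the threshold moved with the processing. With a pseudocount of 12 and with a replicate block all 30 counts stayed within 1.5 times the main count; under the block Racgap1 in Δ(177-191) minus vector at 12 h had an adjusted p of 0.0515 (-0.26), the 1 call that changed among the 97 changes of single genes recomputed with it. Counts moved 24 times with median centring, for which the array medians were signals of 11 to 19. In the order 6, 9, 12 h and 12 minus 6 h, median centring gave vector 4, 1, 1 and 5; WT 7 at 6 h, 3 at 9 h and 19 for 12 minus 6 h; K298E 0 at 6 h, 0 at 9 h and 0 for 12 minus 6 h; and Δ(177-191) 5, 4, 3 and 5. Relative to vector it gave 0 for WT at 6 and 9 h, K298E at 9 h and Δ(177-191) at each time, at 0 h 0 for K298E and 5 for Δ(177-191), and in the mean change 0 for WT minus K298E and 1 for WT minus Δ(177-191). Without the filter the counts were 5 (vector 9 h), 10 (WT 12 h), 2 and 3 (Δ(177-191) minus vector, 6 and 9 h) and 2 (WT minus K298E). Quantile normalization gave 5 (K298E 6 h), 10 (K298E 12 minus 6 h), 1 (WT minus vector 12 h), 8 (K298E minus vector 9 h), and at 0 h 1 (WT) and 2 (K298E). The compared arrays alone gave 7 (vector 12 h), 1 and 2 (K298E 6 and 9 h), 8 and 7 (Δ(177-191) 9 h and 12 minus 6 h), relative to vector 0 and 5 (WT 6 and 12 h), 1 (K298E 12 h) and 3 (Δ(177-191) 9 h), and 1 (WT at 0 h). The mean of all probe sets gave 4 and 11 (K298E 6 h and 12 minus 6 h), 2 (WT minus vector 12 h) and 8 (Δ(177-191) minus vector 6 h), and turned Cenpa in WT minus Δ(177-191) to 0.09. Centring on brighter probe sets, added after seeing the data, gave 3 (Δ(177-191) minus vector 9 h). The cause of these shifts was not tested.

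With arrays left out (1 at a time, or 1 number from every group), the ranges at 6, 9, 12 h and 12 minus 6 h were 6 to 10, 2 to 8, 1 to 4 and 6 to 16 for vector; 13 to 19, 7 to 12, 4 to 12 and 13 to 25 for WT; 1 to 3, 1 to 4, 0 and 2 to 6 for K298E; and 5 to 13, 10 to 15, 6 to 9 and 5 to 12 for Δ(177-191). Relative to vector at 6, 9 and 12 h they were 0 to 2, 0 to 5 and 0 to 1 for WT; 0, 0 to 5 and 0 for K298E; and 1 to 4, 3 to 5 and 5 to 8 for Δ(177-191). At 0 h they were 0 to 1 for WT, 1 to 2 for K298E and 7 to 12 for Δ(177-191), and in the mean change 0 to 5 for WT minus K298E and 7 to 13 for WT minus Δ(177-191).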
